A study of Homo sapiens with 4 samples.

Results

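The genes described here are 41 genes of the folding, degradation and export machinery of the endoplasmic reticulum (ER), the compartment in which secreted and membrane proteins are made. They were taken by name from a list ordered by function and found in the count table through their Ensembl IDs. The list holds 12 luminal chaperones and co-factors, 7 enzymes of disulfide bond formation, 9 genes of ER-associated degradation, 9 genes of translocation and vesicle transport, and 4 sensors and transcription factors of the unfolded protein response. All 41 had a row among the 20263 genes of the table, and 40 were among the 14044 genes tested. The exception was DERL3, which had 4 counts in 1 DMSO library and 0 in the other 3 libraries.

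HCT116, an established line from a human colorectal carcinoma, was profiled by RNA sequencing after 24 h with 32 µM HJ-4, a derivative of the pepper alkaloid piperine, or with 0.1% DMSO as the vehicle. There were 2 libraries per condition, and a single dose and time were measured. The dose is that of the sample labels and the study's methods, whereas a legend of the study gives a lower one. The methods describe biological triplicates, of which the labels give 2 libraries per condition without naming their cultures, and the p-values measure the spread between those libraries.

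Proteins that enter the ER through the SEC61 channel are folded by HSPA5 (BiP) and other chaperones, and their cysteines are paired by protein disulfide isomerases. Those that fail to fold are drawn back to the cytosol and degraded. When unfolded protein accumulates, 3 sensors in the ER membrane respond: IRE1 (ERN1) splices the XBP1 mRNA, ATF6 is cut to release a transcription factor, and PERK (EIF2AK3) slows translation and raises ATF4 and CHOP. Spliced XBP1 and ATF6 act on ER stress response elements in the promoters of chaperone and degradation genes. Gene counts read neither the splicing of XBP1 nor protein.

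These elements are shown because they tie the listed genes to the sensors by sequence. RefSeq promoters (GRCh38.p14, 250 bases before to 50 bases after each start site) were found for 36 of the 41 genes, and each was searched on both strands for 4 motifs, a gene counting once if any of its promoters held the motif. The ER stress response element (ERSE) was searched as CCAAT and CCACG with 9 bases between them. It was present in 9 of the 36 genes (25%) and in 25 of all 27305 genes with a promoter (0.0916%). Textbook accounts defined the element in promoters of genes of this kind, so its presence here is no result of the present data. By function it was found in 5 of 12 luminal chaperone genes, 2 of 6 disulfide bond enzymes, 1 of 7 translocation and transport genes and 1 of 4 sensors and transcription factors, and in none of 7 degradation genes. The sites of the genes that recur below read as follows in the direction of the motif, with the element in capitals and its own coordinates given.
HSPA5, chr9:125241391-125241409, strand of the gene: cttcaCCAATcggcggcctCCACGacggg
HSP90B1, chr12:103930216-103930234, strand of the gene: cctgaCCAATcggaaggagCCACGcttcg
HSP90B1, chr12:103930321-103930339, opposite strand: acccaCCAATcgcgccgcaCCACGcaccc
CALR, chr19:12938384-12938402, opposite strand: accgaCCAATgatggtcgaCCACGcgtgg
ERO1B, chr1:236282183-236282201, opposite strand: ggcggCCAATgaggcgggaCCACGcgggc
PDIA6, chr2:10812853-10812871, strand of the gene: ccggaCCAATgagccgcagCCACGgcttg
XBP1, chr22:28800603-28800621, strand of the gene: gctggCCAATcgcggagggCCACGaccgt

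A shorter variant, ERSE-II, was searched as ATTGG and CCACG with 1 base between them. HERPUD1, HYOU1 and SDF2L1 held it (3 of 36, 8.33%), against 19 of all genes (0.0696%). The core to which spliced XBP1 binds, TGACGTGG, was in DNAJC10, HYOU1 and KDELR3 (8.33%, against 0.927% of all genes). It was no rarer among 114 further ER genes with a promoter, from the lists described below, where 14 held it (12.3%). None of those 114 held an exact ERSE or ERSE-II. In HYOU1 that core overlaps the second of its ERSE-II sites, so the pair is not independent.
HERPUD1, ERSE-II, chr16:56932025-56932035, strand of the gene: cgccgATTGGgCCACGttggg
HYOU1, ERSE-II, chr11:119057274-119057284, opposite strand: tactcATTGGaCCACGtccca
HYOU1, ERSE-II, chr11:119057380-119057390, opposite strand: ctgggATTGGaCCACGtcacg
HYOU1, XBP1 core, chr11:119057386-119057393, strand of the gene: ccccgTGACGTGGtccaa

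The core of sites bound by ATF4 and CHOP, TGATGNAA with N any base, was in HERPUD1 and CREB3L2. This was 2 of 36 genes (5.56%), against 4.46% of all genes with a promoter and 2.77% of the 11120 tested ones. Among 27 ATF4 and CHOP target genes with a promoter the core was in 10 (37%), and no ERSE was found in any of the 27. HERPUD1 was the single listed gene to hold both an ERSE-II and an ATF4/CHOP core. A match is a description of letters in a window and not a site shown to be bound.
HERPUD1, ATF4/CHOP core, chr16:56931966-56931973, opposite strand: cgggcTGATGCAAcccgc
CREB3L2, ATF4/CHOP core, chr7:137932965-137932972, strand of the gene: ggagcTGATGAAAaatgc

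The stretches before the start sites of HSPA5 and HERPUD1 are given because these genes carry the largest chaperone and degradation differences below. The capitals mark the exact ERSE match of HSPA5 and, in HERPUD1, the ATF4/CHOP core on its opposite strand followed by the ERSE-II. Near-matches to the ERSE stay in lower case.
HSPA5, chr9:125241383-125241593, minus strand: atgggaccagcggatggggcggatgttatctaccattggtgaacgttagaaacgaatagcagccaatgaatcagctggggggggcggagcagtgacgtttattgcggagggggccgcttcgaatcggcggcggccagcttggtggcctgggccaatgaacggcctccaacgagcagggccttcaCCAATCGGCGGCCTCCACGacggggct
HERPUD1, chr16:56931892-56932141, plus strand: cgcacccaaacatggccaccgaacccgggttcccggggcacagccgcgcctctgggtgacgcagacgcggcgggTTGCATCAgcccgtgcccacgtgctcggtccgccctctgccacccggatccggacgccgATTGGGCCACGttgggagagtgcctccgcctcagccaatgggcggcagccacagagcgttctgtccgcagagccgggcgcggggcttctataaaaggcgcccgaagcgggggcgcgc

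The libraries held 29769568 to 34359889 counts, and levels are given as TMM-scaled counts relative to library size (CPM), a share of a library, so that fewer cells of a kind and less RNA per cell cannot be told apart. Over all genes tested, the root mean square log2 difference was 0.50 between the DMSO libraries, 0.43 between the HJ-4 libraries and 0.50 to 0.52 between libraries of different conditions. The DMSO libraries thus differed from each other about as much as from the HJ-4 libraries. Of 9 colon epithelial markers 6 had at least 10 counts in every library, KRT8, KRT18, KRT19, EPCAM, CDH1 and CDX2, with CDX1 at 0 in all 4 libraries and a summed level of 3981 to 4475 CPM. Goblet cell markers, which a professional secretory cell would carry, summed to 15.1 to 20.9 CPM, with 2 of 7 at 10 or more counts in every library and 3 at 0. Markers of other cell types summed to 60.2 to 64.0 CPM, almost all of it COL1A1, with 2 of 10 at 10 or more counts and 3 at 0.

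With HJ-4 the ER genes had mostly, and slightly, higher values. Of the 40 tested, 34 had a positive log2 fold change of HJ-4 over DMSO (85%, where 50.7% of all genes tested were positive), and their median was 0.18 (range -0.07 to 0.82) where the median of all genes was 0.00. The largest differences were those of HERPUD1, an ER membrane protein of the degradation complex, HSPA5, the central chaperone, and EDEM1, SSR1, DNAJB9 and SEC61A1, all at log2 fold changes between 0.37 and 0.81, and of CREB3L2, whose value rested on 1 library. The median without 1 library ran from 0.13, without DMSO replicate 2, to 0.21, without HJ-4 replicate 2.

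None of the 40 passed edgeR's quasi-likelihood test at a Benjamini-Hochberg adjusted p under 0.05, a threshold that 7 of 14044 genes passed (0.0498%). The smallest adjusted p was 0.16, for HERPUD1. At an unadjusted p under 0.05, 9 of the 40 were higher (22.5%) and 0 were lower, against 7.93% of all genes in the higher and 7.93% in the lower direction. DESeq2's Wald test called 3 of them higher (7.5%), HERPUD1, SEC61A1 and HSPA5, and 0 lower, where it called 2.27% of genes higher and 1.66% lower. The count of 9 became 15 without DMSO replicate 1 and was as low as 3 without HJ-4 replicate 1.

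The separation of libraries describes the same values without a model, and is no independent support for the fold changes. In 24 of the 40 genes (60%) the lower HJ-4 library exceeded the higher DMSO library, which held for 25.2% of all genes. In 1 gene, OS9, both HJ-4 libraries lay below (2.5%, against 25.6% of all genes), and in 15 the conditions overlapped. Each gene was also set against its own mean over the 4 libraries on the log2 scale. Each HJ-4 library had 36 of the 40 genes above that mean, DMSO replicate 1 had 14 and DMSO replicate 2 had 6. The median deviation was -0.04 in DMSO replicate 1, -0.12 in DMSO replicate 2, 0.12 in HJ-4 replicate 1 and 0.05 in HJ-4 replicate 2, while the medians over all genes were within 0.01 of 0. The DMSO libraries therefore did not stand equally low. Between them the ER genes differed by a median of 0.14 in size, and between the HJ-4 libraries by 0.07. Over all genes these differences in size were 0.16 and 0.11. With its sign, replicate 2 minus replicate 1, the median of the ER genes was -0.10 with DMSO and -0.04 with HJ-4. The signed median between the conditions was 0.18.

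**Figure D1:**
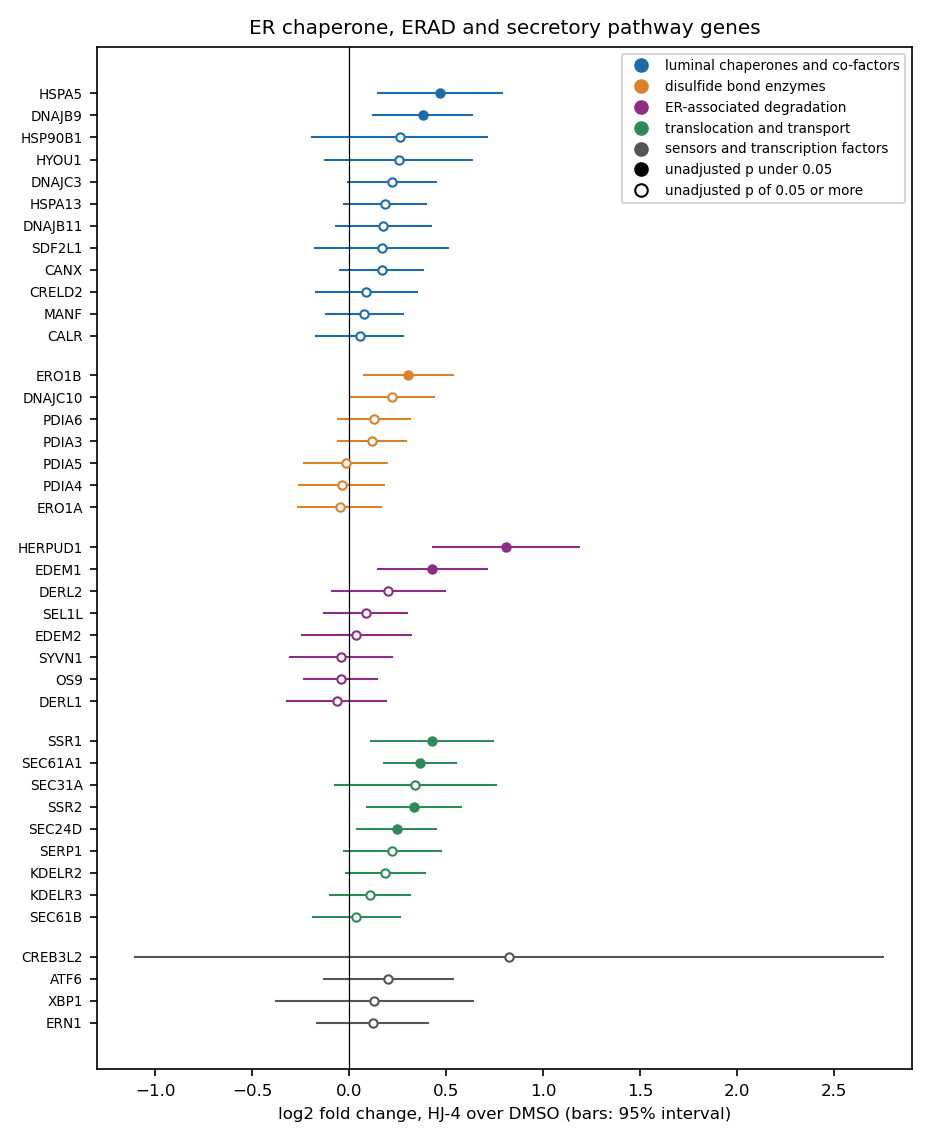
Log2 fold change of HJ-4 over DMSO (horizontal axis) for each of the 40 tested ER genes, grouped by function, with bars for the 95% confidence interval of edgeR's quasi-likelihood test. Most points lie right of 0, 34 of 40, and the bar of CREB3L2 runs from -1.11 to 2.76.

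The luminal chaperones bind unfolded chains, and their J-domain partners hand them substrates. All 12 were positive on the log2 scale, with a median of 0.18, the groups were separate in 7 (58.3%, against 25.2% of all genes), and 2 were higher at an unadjusted p under 0.05 (16.7%, against 7.93%). HSPA5 (chromosome 9, 125234853 to 125241382, GRCh38) was at 3149.6 and 2622 CPM with DMSO and at 4263 and 3722 CPM with HJ-4. Its groups did not overlap, and the log2 fold change was 0.47 (SE 0.13, 95% interval 0.14 to 0.79, edgeR adjusted p = 0.23). DNAJB9 (chromosome 7, 108569867 to 108574850), a J-domain co-chaperone of HSPA5, was at 56.3 and 49.8 CPM against 70.8 and 66.9 CPM. These groups were separate too, with a log2 fold change of 0.38 (SE 0.10, edgeR adjusted p = 0.23).

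DNAJC3, a J-domain protein that also restrains PERK, was at 106 and 106 CPM with DMSO and 129.9 and 117 CPM with HJ-4, for a log2 fold change of 0.22 (SE 0.09, edgeR adjusted p = 0.33). HSPA13, a microsomal member of the HSP70 family, was at 76.1 and 72.5 CPM against 87.3 and 81.4 CPM, a log2 fold change of 0.18 (SE 0.08, edgeR adjusted p = 0.37). In both genes each HJ-4 library was above each DMSO library, by less than in HSPA5. HSP90B1 (GRP94), the ER member of the HSP90 family, was at 1524 and 2169 CPM with DMSO and 2287 and 2129.6 CPM with HJ-4. Here DMSO replicate 1 alone was low and the conditions overlapped, with a log2 fold change of 0.26 (SE 0.18, 95% interval -0.20 to 0.72, edgeR adjusted p = 0.51). It was 0.026 without DMSO replicate 1 and 0.53 without DMSO replicate 2.

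CALR (calreticulin), a lectin chaperone of glycoproteins, was at 1233 and 1089.5 CPM with DMSO and 1197 and 1211 CPM with HJ-4. Both HJ-4 libraries sat between the DMSO libraries, and the log2 fold change of 0.05 had a 95% interval of -0.18 to 0.28 (SE 0.09, edgeR adjusted p = 0.80). HSPA5 and CALR thus had different values although each holds an ERSE, and the difference between the genes was not tested. The other 6 chaperone genes, HYOU1, DNAJB11, SDF2L1, CANX, CRELD2 and MANF, had log2 fold changes of 0.08 to 0.25, with separate groups in 3 and a smallest edgeR adjusted p of 0.41. The median of the 12 without HJ-4 replicate 1 was 0.12.

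**Figure D2:**
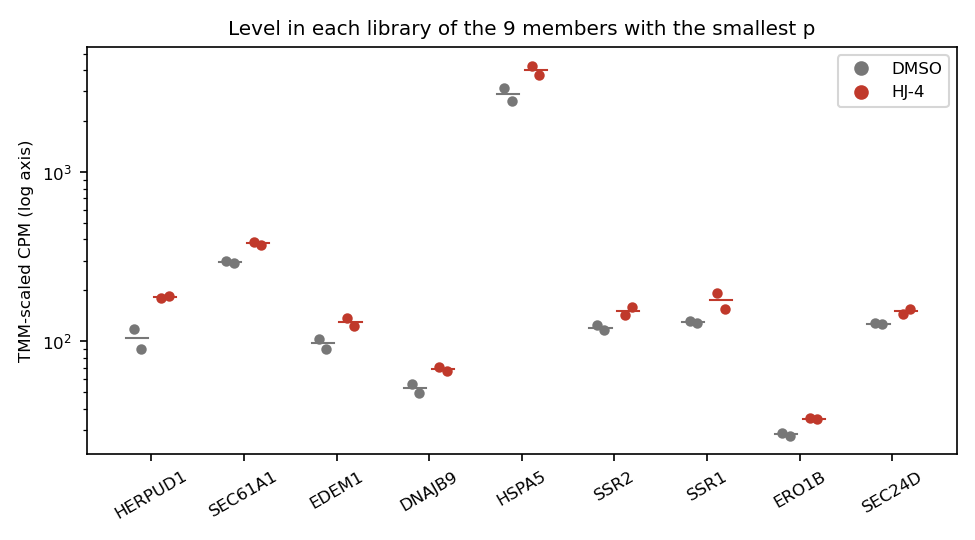
TMM-scaled CPM on a log axis (vertical) of the 9 ER genes with an unadjusted p under 0.05, with a point for each of the 2 DMSO (grey) and 2 HJ-4 (red) libraries and a line at the mean of each condition. In each gene both red points lie above both grey points, and in HSPA5 and HERPUD1 the DMSO libraries are farther apart than in SEC61A1.

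The disulfide bond enzymes had 4 of 7 positive log2 fold changes and a median of 0.12, with separate groups in 4 (57.1%, against 25.2% of all genes) and 1 gene higher at an unadjusted p under 0.05 (14.3%, against 7.93%, a difference that 1 gene makes). That gene was ERO1B (chromosome 1, 236214681 to 236282019), an oxidase that recharges the protein disulfide isomerases. It was at 28.7 and 27.7 CPM with DMSO and 35.0 and 34.6 CPM with HJ-4. The groups were narrow and did not overlap, with a log2 fold change of 0.30 (SE 0.09, 95% interval 0.07 to 0.54, edgeR adjusted p = 0.25). Its paralogue ERO1A, at 51.7 CPM per kilobase of transcript with DMSO against 5.65 for ERO1B, had a log2 fold change of -0.05 with a 95% interval of -0.27 to 0.17 and overlapping groups. The difference between the paralogues was not tested.

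DNAJC10 (ERdj5), a reductase that opens disulfides of proteins bound for degradation, was at 117 and 129 CPM with DMSO and 143 and 143 CPM with HJ-4, for a log2 fold change of 0.22 (SE 0.09, edgeR adjusted p = 0.32). PDIA3, which acts on glycoproteins together with CALR and CANX, was at 756 and 750.5 CPM against 822 and 810.4 CPM, a log2 fold change of 0.12 (SE 0.07, edgeR adjusted p = 0.46). PDIA6 was at 382 and 365 CPM against 413 and 404 CPM, a log2 fold change of 0.13 (SE 0.07, edgeR adjusted p = 0.45). In all 3 the groups were separate and the differences small. Of the exon length of PDIA6, 25.2% overlaps ATP6V1C2 on the opposite strand, and without knowledge of the strand setting the reads there cannot be assigned to either gene with certainty.

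PDIA4 (ERp72), a large isomerase, went the other way in value, at 677 and 604 CPM with DMSO and 631 and 613 CPM with HJ-4. The HJ-4 libraries lay between the DMSO libraries, with a log2 fold change of -0.04 (SE 0.09, 95% interval -0.27 to 0.18, edgeR adjusted p = 0.85). PDIA5, whose exons overlap those of SEC22A by 12% of their length, was at -0.02.

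ER-associated degradation recognises misfolded proteins and moves them to the proteasome. Of 8 genes tested, 5 were positive, the median was 0.06, 2 were higher at an unadjusted p under 0.05 (25%, against 7.93% of all genes), and groups were separate upward in 3 (37.5%, against 25.2%). HERPUD1 (chromosome 16, 56932142 to 56944864), which joins the HRD1 ubiquitin ligase complex, was at 119 and 89.9 CPM with DMSO and 180.1 and 185 CPM with HJ-4. Both HJ-4 libraries were well above the higher DMSO library, and the means of 104 ± 20.3 and 182 ± 3.21 CPM (SD, n = 2) differed 1.75-fold. Its log2 fold change of 0.81 had an SE of 0.15 and a 95% interval of 0.43 to 1.19, and edgeR's adjusted p was 0.16. Without DMSO replicate 1 it was 1.02 with an edgeR adjusted p of 0.035, in a fit where the HJ-4 libraries alone give the spread. The edgeR adjusted p was 0.072 without DMSO replicate 2, and it was 0.56 and 0.52 when HJ-4 replicate 1 or 2 was left out.

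EDEM1 (chromosome 3, 5187646 to 5219958), a lectin-like protein that marks mannose-trimmed glycoproteins for degradation, was at 103.8 and 90.7 CPM with DMSO and 138 and 123 CPM with HJ-4. The groups did not overlap, with a log2 fold change of 0.43 (SE 0.11, 95% interval 0.14 to 0.71, edgeR adjusted p = 0.22). EDEM2, of the same family, was at 0.04 with overlapping groups. DERL2, of the derlin family of membrane proteins, was at 34.7 and 29.7 CPM against 37.6 and 36.5 CPM, with separate groups and a log2 fold change of 0.20 (edgeR adjusted p = 0.44) that was 0.32 without DMSO replicate 1 and 0.093 without DMSO replicate 2.

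The other degradation genes tested showed no such upward separation. SEL1L, the adaptor of the HRD1 ligase, was at 113 and 121 CPM with DMSO and 128 and 120.8 CPM with HJ-4, overlapping, with a log2 fold change of 0.08 (edgeR adjusted p = 0.65) that ran from 0.039, without DMSO replicate 1, to 0.13, without DMSO replicate 2, and was 0.054 without HJ-4 replicate 1. The remaining 4 genes, SYVN1 (the HRD1 ligase itself), EDEM2, DERL1 and OS9, ran from -0.07 to 0.04. OS9, a lectin that delivers glycoproteins to HRD1, was the one listed gene with both HJ-4 libraries below both DMSO libraries, at 273 and 273 CPM against 259 and 270.4 CPM, a difference of -0.05 on the log2 scale. The group median rested on single DMSO libraries, at 0.11 without DMSO replicate 1 and 0.03 without DMSO replicate 2. DERL3, the gene not tested, shares 77% of its exon length with SMARCB1 on the opposite strand.

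Translocation and transport had a median of 0.24, the highest of the 5 functional groups in the fit to all 4 libraries, whereas without DMSO replicate 1 it was 0.26 and that of the sensors and transcription factors 0.35. All 9 genes were positive, with separate groups in 8 (88.9%, against 25.2% of all genes) and 4 higher at an unadjusted p under 0.05 (44.4%, against 7.93%). SEC61A1 (chromosome 3, 128051641 to 128071705), the pore of the translocation channel, was at 299.6 and 290.0 CPM with DMSO and 387 and 373 CPM with HJ-4. The conditions were far apart relative to the spread within each, with a log2 fold change of 0.37 (SE 0.07, 95% interval 0.18 to 0.56, edgeR adjusted p = 0.17).

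SSR1 and SSR2, subunits of the translocon-associated TRAP complex, were also separate between conditions. SSR1 was at 133 and 128 CPM with DMSO and 194 and 156 CPM with HJ-4, for a log2 fold change of 0.42 (SE 0.12, edgeR adjusted p = 0.24). SSR2 was at 125 and 116 CPM against 143 and 159.8 CPM, a log2 fold change of 0.33 (SE 0.10, edgeR adjusted p = 0.24). In SSR1 the HJ-4 libraries were farther apart than the DMSO libraries, and its log2 fold change was 0.27 without HJ-4 replicate 1.

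Of the transport genes, SEC24D, a cargo-binding subunit of the COPII coat that carries proteins from the ER to the Golgi, was at 128 and 126 CPM with DMSO and 146 and 155 CPM with HJ-4, for a log2 fold change of 0.24 (SE 0.08, edgeR adjusted p = 0.27). KDELR2, a receptor that returns escaped ER proteins, was at 209 and 201 CPM against 241 and 225 CPM, a log2 fold change of 0.19 (SE 0.08, edgeR adjusted p = 0.35). Both were higher in each HJ-4 library than in either DMSO library. SERP1, SEC31A and KDELR3, with separate groups, and SEC61B, with overlapping ones, ran from 0.04 to 0.34.

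The subunits of the SEC61 channel itself did not share 1 value. SEC61A1 was at 0.37 and SEC61B at 0.04 (95% interval -0.19 to 0.27). SEC61G, the small gamma subunit and not one of the 41, was at 77.9 and 65.7 CPM with DMSO and 48.3 and 45.1 CPM with HJ-4. Its HJ-4 libraries lay below both DMSO libraries, with a log2 fold change of -0.62 (SE 0.12, edgeR adjusted p = 0.16, DESeq2 adjusted p = 0.0026). The difference between subunits was not tested.

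The sensors and transcription factors had a median of 0.16, with 4 of 4 positive and none at an unadjusted p under 0.05. ERN1, which encodes IRE1, was at 77.9 and 65.1 CPM with DMSO and 75.9 and 79.4 CPM with HJ-4, overlapping, with a log2 fold change of 0.12 (SE 0.11, edgeR adjusted p = 0.63). XBP1, the mRNA that IRE1 splices, was at 102 and 68.2 CPM against 91.5 and 94.6 CPM, a log2 fold change of 0.13 (95% interval -0.38 to 0.64, edgeR adjusted p = 0.78). For both genes the HJ-4 values lay within or near the range of the DMSO libraries, and without DMSO replicate 2 the sign turned, to -0.0048 for ERN1 and -0.13 for XBP1.

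ATF6 was at 64.0 and 80.6 CPM with DMSO and 84.6 and 81.6 CPM with HJ-4, for a log2 fold change of 0.20 (SE 0.13, edgeR adjusted p = 0.49). EIF2AK3, which encodes PERK and was not on the list, was at 33.9 and 37.4 CPM against 42.7 and 38.2 CPM, a log2 fold change of 0.18 (SE 0.11, edgeR adjusted p = 0.47). In both genes the lower HJ-4 library exceeded the higher DMSO library by a small margin. The value of ATF6 was 0.044 without DMSO replicate 1 and 0.38 without DMSO replicate 2, and that of EIF2AK3 was 0.12 without DMSO replicate 1 and similar, at 0.11, without HJ-4 replicate 1. CREB3L2, a membrane-bound transcription factor related to ATF6, was at 196 and 34.7 CPM with DMSO and 205 and 202 CPM with HJ-4. DMSO replicate 2 alone was low, and the log2 fold change of 0.82 had an SE of 0.75 (edgeR adjusted p = 0.62). Without DMSO replicate 1 it became 2.55 (edgeR adjusted p = 0.017), a fit in which the low library is the only control, and without DMSO replicate 2 it was 0.058. The group median was 0.35 without DMSO replicate 1 and 0.03 without DMSO replicate 2.

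Levels between genes were compared as CPM per kilobase of the canonical transcript. With DMSO, HSPA5 was highest at 736 ± 95.2 (SD, n = 2), followed by HSP90B1 at 664 ± 164 and CALR at 611 ± 53.2, 3 genes whose spreads overlapped. PDIA4 followed at 231, PDIA3 at 205, CANX at 192, PDIA6 at 164 and MANF at 145. With HJ-4, HSPA5 was at 1018 ± 97.6, HSP90B1 at 794 ± 40.1 and CALR at 633 ± 5.10, and in that condition the spreads did not overlap. HERPUD1 was at 36.5 with DMSO and 63.9 with HJ-4, and SEC61A1 at 82.6 and 106 CPM per kilobase. The genes tested that were lowest with DMSO were DNAJC10 at 6.10 and ERO1B at 5.65. The place of DNAJC10 depends on the length used as divisor. Its canonical transcript has 20144 bases and its DMSO mean was 123 CPM, against 4994 bases and 28.2 CPM for ERO1B.

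**Figure D3:**
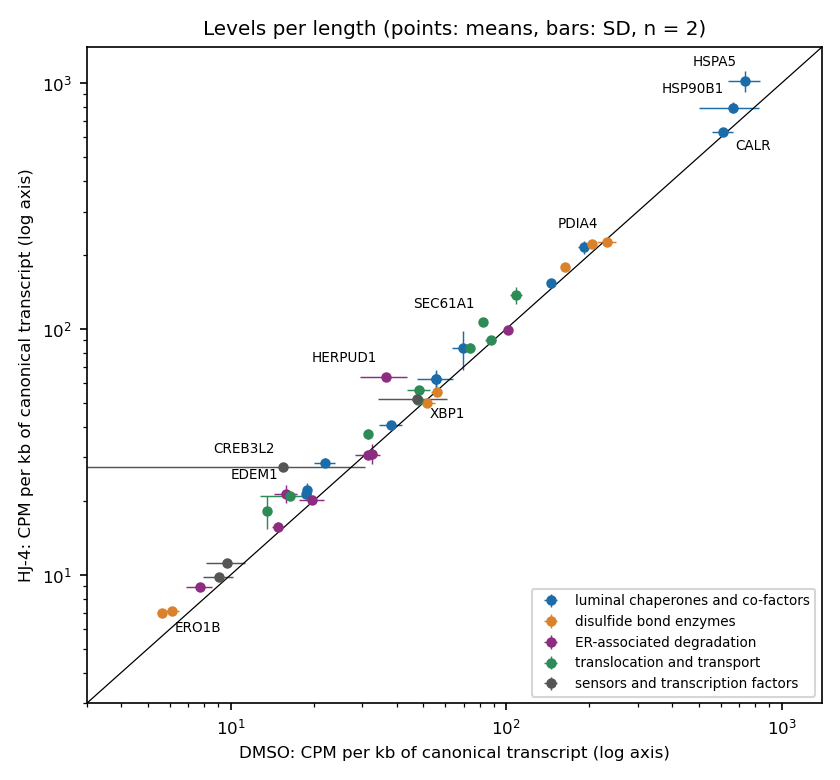
Level with DMSO (horizontal axis) against level with HJ-4 (vertical axis) of the ER genes, as TMM-scaled CPM per kilobase of the canonical transcript on log axes, with bars for the SD of the 2 libraries of a condition and a diagonal at equal levels. The 3 chaperones HSPA5, HSP90B1 and CALR stand apart at the top, HERPUD1 lies above the diagonal, and the lower bar of CREB3L2 leaves the plot.

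Set against the promoter elements, the fold changes of genes with and without an exact match lay close together. Elements with a changed base were not searched, so a gene without a match may still hold one. The 12 genes with an ERSE or ERSE-II all had positive log2 fold changes, with a median of 0.19 (range 0.05 to 0.81). Of the 24 genes with a promoter and neither element, 19 were positive, and their median was 0.18. The 9 with an ERSE had a median of 0.17. The 2 genes with an ATF4/CHOP core, HERPUD1 and CREB3L2, had the highest values of all 40, and in CREB3L2 that value rested on DMSO replicate 2. The core of CREB3L2 was in 1 of its 2 promoters, 17 to 24 bases after a start site inside the gene's span (137874979 to 138002086). Gene counts do not separate start sites. No test was made of the differences between genes with and without a match.

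A further 137 genes of the ER were listed by function, apart from the 41, and all were tested. Their median log2 fold change was 0.05, with 89 positive (65%, against 50.7% of all genes) and none at an edgeR adjusted p under 0.05. DESeq2 called 8 of the 137 higher and 1 lower, where it called 2.27% of all genes higher and 1.66% lower. Of those 8, 4 were among the 14 further regulators of the unfolded protein response. Of the 137, 17 had higher values (12.4%) and 5 lower ones (3.65%) at an unadjusted p under 0.05, against 7.93% of all genes each way. Both HJ-4 libraries were above both DMSO libraries in 55 (40.1%, against 25.2% of all genes) and below in 24 (17.5%, against 25.6%). This median lay closer to that of all genes than to that of the 41. The lists of further folding factors (30 genes, median 0.02), degradation genes (28, 0.04), translocon and signal peptidase genes (20, 0.02), COPII and retrieval genes (33, 0.06) and oligosaccharyltransferase genes (12, 0.09) were each below the 0.18 of the 41, and 14 further regulators of the unfolded protein response were at 0.17.

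Among those regulators, TRIB3, a pseudokinase induced by CHOP, was at 63.3 and 54.2 CPM with DMSO and 117 and 121 CPM with HJ-4, for a log2 fold change of 1.02 (edgeR adjusted p = 0.079). PPP1R15A (GADD34), which directs the phosphatase that ends the translational block, was at 139 and 132 CPM against 222 and 229 CPM, a log2 fold change of 0.74 (edgeR adjusted p = 0.079). In both the groups lay far apart relative to their spread, and DESeq2's adjusted p was 3.0e-11 for TRIB3 and 5.9e-10 for PPP1R15A. ATF4 and DDIT3 (CHOP) were the remaining regulators of this list that DESeq2 called. ATF4 had a log2 fold change of 0.42 (edgeR adjusted p = 0.15, DESeq2 adjusted p = 0.0016). DDIT3 was at 0.87 (edgeR adjusted p = 0.16, DESeq2 adjusted p = 0.00037). The activity of PERK was not measured.

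Of the other folding factors, TXNDC5, a disulfide isomerase, was at 313 and 329 CPM with DMSO and 405 and 397 CPM with HJ-4 (log2 fold change 0.32, edgeR adjusted p = 0.20). FKBP11, a prolyl isomerase of secretory cells, was at 17.9 and 15.02 CPM against 11.4 and 13.0 CPM (-0.43, edgeR adjusted p = 0.27). The groups were separate in each, in opposite directions. In degradation, UBE2J1, a ubiquitin-conjugating enzyme of the ER, was at 37.3 and 35.5 CPM against 48.9 and 44.7 CPM (0.36, edgeR adjusted p = 0.23). TMEM129, a ubiquitin ligase, was at 22.2 and 30.7 CPM against 36.5 and 42.7 CPM (0.58, edgeR adjusted p = 0.26), with DMSO libraries well apart and a value of 0.36 without DMSO replicate 1.

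SRPRB, a subunit of the receptor that docks ribosomes, was at 28.8 and 31.2 CPM with DMSO and 41.6 and 40.6 CPM with HJ-4 (log2 fold change 0.46, edgeR adjusted p = 0.18). OSTC and KRTCAP2, subunits of the oligosaccharyltransferase that adds N-linked sugars, differed in size. OSTC was at 65.3 and 58.0 CPM against 89.7 and 82.9 CPM (0.49, edgeR adjusted p = 0.17). KRTCAP2 was at 37.5 and 36.2 CPM against 42.5 and 40.7 CPM (0.17, edgeR adjusted p = 0.42). Of the transport genes, SEC13 of the COPII coat was at 89.2 and 89.4 CPM against 108 and 111 CPM (0.29, edgeR adjusted p = 0.22), and BET1, a fusion protein of ER-to-Golgi vesicles, was at 25.7 and 20.4 CPM against 14.9 and 15.9 CPM (-0.59, edgeR adjusted p = 0.21). Among these lists genes with separate groups were thus found in both directions.

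**Figure D4:**
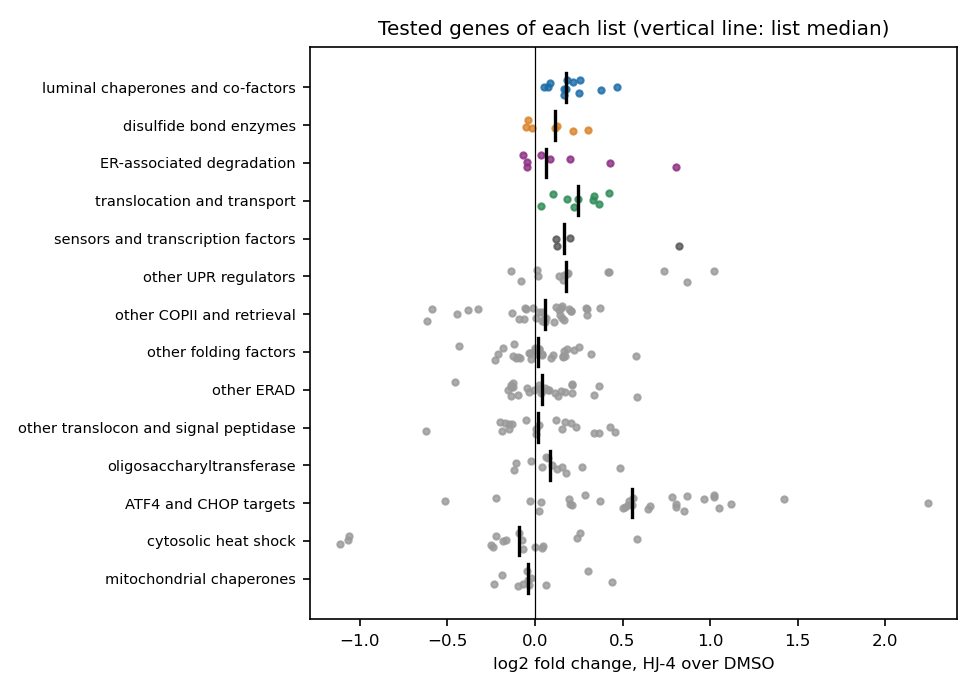
Log2 fold change of HJ-4 over DMSO for each tested gene (points) and the median (line) of the functional groups of the 41 ER genes, the lists of further ER genes and 3 comparison lists. The functional groups of the 41 have medians of 0.06 to 0.24, the ATF4 and CHOP targets 0.56 and the cytosolic heat shock genes -0.09.

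Beside the chaperones of other compartments and the targets of ATF4 and CHOP, the 41 had a median in between. Of 33 listed targets of ATF4 and CHOP, 30 were tested, 27 were positive and the median log2 fold change was 0.56, 21 were higher at an unadjusted p under 0.05 (70%, against 7.93% of all genes) and 1 passed at an edgeR adjusted p under 0.05. Both HJ-4 libraries were above both DMSO libraries in 25 of the 30 (83.3%, against 25.2%). Of 17 cytosolic heat shock genes tested, 11 were negative with a median of -0.09 and 4 were lower at an unadjusted p under 0.05 (23.5%, against 7.93%). Of 11 mitochondrial chaperone genes, 8 were negative with a median of -0.04. The differences between lists were not tested.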

How the data were processed

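HCT116 cells were profiled by RNA sequencing in 2 DMSO and 2 HJ-4 libraries. The table deposited by the authors holds raw counts of reads per Ensembl gene, without normalization. The study's methods name STAR, GRCh38 and featureCounts, whereas the submitters' processing notes name HISAT2 and RSEM. The sources thus name different aligners and counters, and neither gives the annotation version or strand setting. Reads of overlapping genes may be split or dropped, and 18 of the 41 genes share exon bases with another gene of the table, 15 of them on the opposite strand.

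Symbols and coordinates were taken from GENCODE version 44 (20148 of 20263 IDs matched). Lowly counted genes were removed with filterByExpr of edgeR 4.0.16 (R 4.3.3), and counts were scaled by TMM and tested with the quasi-likelihood test, condition being the only term, with Benjamini-Hochberg adjustment over 14044 genes. The study names limma; edgeR was used because the values are counts. The common biological coefficient of variation was 0.157. Fits were tested on simulated data with planted fold changes larger than that of any of the 40 ER genes in the main fit. That test does not cover differences as small as theirs. SEs were derived from the F statistic. Alternatives were other scalings, filters and tests (DESeq2 1.42.0, limma-voom in limma 3.58.1, robust fitting), a replicate block and leaving out each library. Values were given for up to 4 genes per functional group with the smallest p, for textbook members, for EIF2AK3 and for up to 2 genes per list of other ER genes. Other members are given by range, and ERO1A, PDIA5, EDEM2, OS9 and SEC61B were singled out after their values were seen. So were ATF4 and DDIT3 among the other ER genes. The 41 genes, the lists and the tests were chosen with earlier results of these data known. Motifs were searched in RefSeq promoters.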

Additional observations from a re-analysis of the deposited data

How the results depend on the processing

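With 2 libraries per condition, 1 dose and 1 time, small differences of single genes were not resolved. The number of the 40 ER genes called at an adjusted p under 0.05 was 0 with edgeR, 3 with DESeq2's Wald test and 0 to 2 when single libraries were left out, the 2 being HERPUD1 and CREB3L2 without DMSO replicate 1. The number higher at an unadjusted p under 0.05 was 9, and the number positive was 34, and 28 to 38 without 1 library. Groups were separate in 25, with 24 above and 1 below, where 25.2% of all genes were above and 25.6% below. Without 1 library they were separate in 27 to 37. Fewer libraries separate more easily, and the share over all genes was not computed there. The median log2 fold change was 0.18, 0.13 to 0.21 without 1 library and 0.15 with total counts, a scaling that moved the median of all genes to -0.025. The median of the disulfide bond enzymes ran from 0.094 to 0.12 without 1 library. Over the fits without 1 library the log2 fold change of ERN1 ran from -0.0048 to 0.26, of XBP1 from -0.13 to 0.45 and of CALR from -0.035 to 0.14, each negative without DMSO replicate 2, and that of PDIA4 from -0.12 to 0.044, positive without DMSO replicate 1. The causes were not tested.

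Same-numbered libraries did not deviate together over all genes (r = -0.043). What the numbers mark is not in the labels, and with 2 libraries per condition this value cannot exclude a pairing. Of the 40 ER genes, 9 were higher in replicate 2 than in replicate 1 with DMSO, and 11 with HJ-4. With the replicate block 0 of the 40 genes were called, 7 were higher at an unadjusted p under 0.05, 34 were positive and the median was 0.18. Over all genes, calls higher and lower numbered 6 and 1 with edgeR, 290 and 212 with DESeq2, 31 and 15 with robust fitting, 10 and 2 with no filter, 22 and 9 with the block, 7 and 2 with limma-voom, 59 and 29 without DMSO replicate 1, 23 and 11 without DMSO replicate 2, and 0 and 0 without either HJ-4 library. For the genes named by smallest p, as textbook members or as EIF2AK3, 426 of 444 alternative values kept their direction and side of the threshold, 14 passed it and 4 changed sign. None of these genes passed the threshold in the main fit, so keeping its side meant staying uncalled and is no measure of stability.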
